A study of Mus musculus with 12 samples.

Results

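The genes described here are 10 genes of calcium cycling in the sarcoplasmic reticulum (SR) of heart muscle: Atp2a2, Pln, Sln, Ryr2, Casq2, Trdn, Hrc, Slc8a1, Fkbp1b and Jph2. They were found by symbol among the probesets, short stretches of a transcript that are measured separately, to which the platform annotation gives exactly 1 gene symbol. They account for 10 of 20352 genes and 211 of 241576 probesets. Their RNA was compared between the border zone of infarcted hearts and the matching site of sham-operated hearts. The infarcted group held 6 C57BL/6J mice, 12 weeks of age, with tissue taken 2 weeks after surgery beside an infarct. The sham group held 6 mice of the same strain and age, sampled at the same interval after a sham operation. The labels name no genotype, transgene or drug in either group, call the 6 samples of each condition biological replicates, and do not say how the infarct was made. Values are log2 signals of a one-colour array, the gene value being the median over the gene's probesets on each array. Every change is infarcted minus sham on that scale.

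In each heartbeat the ryanodine receptor releases calcium from the SR, the calcium pump SERCA2 returns it, and the sodium-calcium exchanger carries the rest out of the cell. Small membrane peptides hold the pump back, calcium-binding proteins buffer calcium inside the SR, and anchoring proteins keep the release channel at the junction with the cell membrane. Lower pump activity and leaky release channels are well-known features of failing hearts.

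With the median over probesets as the gene value, 3 of the 10 members passed the test. Hrc, which encodes a histidine-rich calcium-binding protein of the SR lumen, fell 1.67-fold, and Trdn, which encodes the anchor triadin, fell 1.24-fold, a call that was lost when dim probesets were left out. The gene value of Fkbp1b, which encodes the ryanodine receptor partner calstabin 2, rose 1.36-fold, but this rested on probesets near background. The pump Atp2a2, its inhibitors Pln and Sln, the channel Ryr2, the buffer Casq2, the exchanger Slc8a1 and the junctional protein Jph2 did not pass the test (limma, adjusted p under 0.05 over all genes). Thus, with this gene value, 2 of 10 members fell and 1 rose, against 10.2% of all genes that fell and 10.1% that rose. The share of members called with it is close to that of genes at large, of which 20.3% were called either way. The infarcted arrays lay wholly below the sham arrays for 4 members (Atp2a2, Pln, Trdn and Hrc), against 5.29% of all genes, and wholly above them for none, against 5.97%. The median change of the 10 members was -0.10, against -0.04 for all genes. The count of members called moved with the processing. It was 7 of 10 with the mean over probesets, where 5674 of 20352 genes were called. A trended robust prior in limma gave 5 of 10, against 4417 of 20352 genes. With dim probesets left out it was 1 of 9 (Hrc), against 4405 of 17268 genes.

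**Figure D1:**
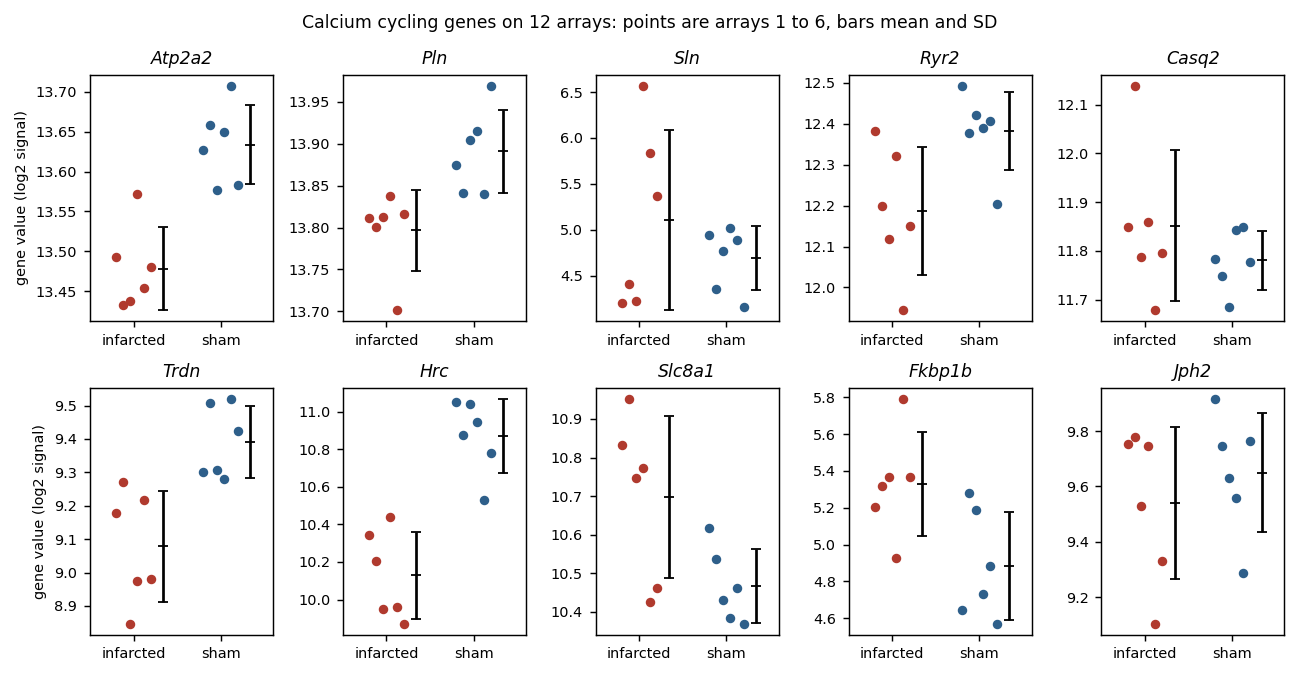
Gene value (log2 signal) of each member on the 6 infarcted (left, red) and 6 sham (right, blue) arrays, with the mean and SD as bars and an axis of its own in each panel. Points within a group run from replicate 1 to 6; the groups do not overlap for Atp2a2, Pln, Trdn and Hrc.

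**Figure D2:**
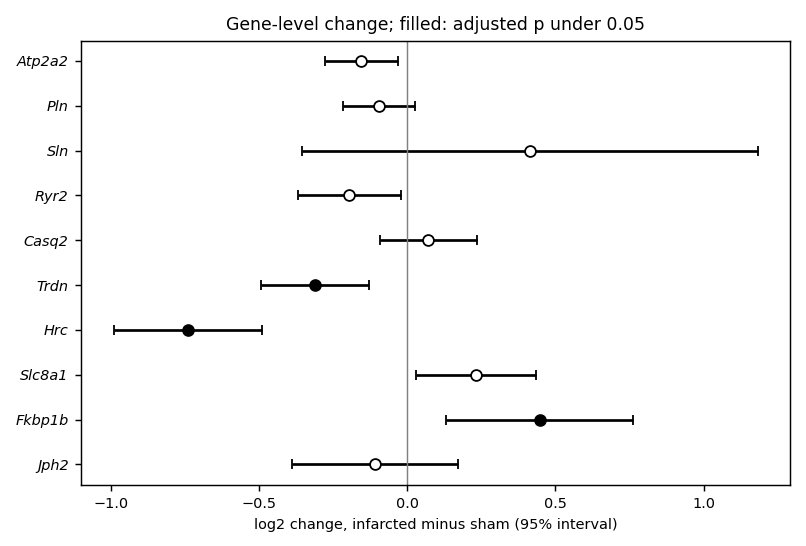
Change in log2 signal of each member, infarcted minus sham, with its 95% interval from limma. Filled points passed at an adjusted p under 0.05: Trdn (-0.31), Hrc (-0.74) and Fkbp1b (0.45).

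The array medians were close, from 7.04 to 7.06 in infarcted and from 6.997 to 7.03 in sham hearts, but every infarcted median lay above every sham median. With each array centred on its median, Atp2a2 (limma, adjusted p = 0.0212) and Ryr2 (adjusted p = 0.0457) passed, and Fkbp1b (adjusted p = 0.0615) did not. Heart muscle RNA was plentiful in both groups. The mean of 15 cardiomyocyte markers (sarcomere and muscle genes) lay between 12.73 and 12.81 on infarcted and between 12.79 and 12.86 on sham arrays. The mean difference was -0.05. Several of these markers lay above 13, such as Actc1 (13.96 in infarcted and 13.92 in sham hearts) and Tnnt2 (13.57 and 13.62). Probesets of all genes between 13 and 15 had a median absolute change of only 0.0653. Whether the top of the scale hid a larger difference in these markers was not tested. These markers cannot tell the border zone from other heart muscle. Of these 15, 1 was called lower, the muscle creatine kinase gene Ckm (-0.32, adjusted p = 0.0409), and none higher. Markers of other cells moved with the groups. All 9 fibroblast markers were called higher, with list means of 10.38 ± 0.17 in infarcted and 8.84 ± 0.14 in sham hearts (SD, n = 6 each). Of 8 macrophage markers 7 were called higher, with list means between 8.77 and 9.04 on infarcted and between 8.14 and 8.47 on sham arrays. Of 5 smooth muscle markers 3 were called higher, and of 7 conduction system markers 1 was called lower. By limma no gene was called among 7 endothelial, 10 skeletal muscle and 6 adipocyte markers, of which 2, 1 and 1 had an unadjusted p under 0.05. The part of these cells in the members' changes was not tested, and in bulk tissue fewer heart muscle cells and less RNA per cell cannot be told apart. With every array centred on its cardiomyocyte marker level, 4 of 10 members passed in limma, against 3919 of 20352 genes (2446 higher and 1473 lower). The 4 were Hrc (-0.70, adjusted p = 0.000627), Trdn (-0.27, adjusted p = 0.0332), Fkbp1b (0.49, adjusted p = 0.0365) and Slc8a1 (0.28, adjusted p = 0.0477).

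The genes of the luminal calcium-binding proteins changed unequally. Hrc binds calcium inside the SR and, through triadin, is tied to the release channel. Its gene value ranged from 9.87 to 10.44 with a median of 10.08 in infarcted hearts, and from 10.53 to 11.05 with a median of 10.91 in sham hearts. Every infarcted array thus lay below every sham array. The mean was 10.13 ± 0.23 in infarcted and 10.87 ± 0.20 in sham hearts (SD, n = 6 each). The change was -0.74 with a standard error of 0.12 (limma, adjusted p = 0.000438), a ratio of 0.598 (95% interval 0.503 to 0.711). Only 0.634% of all genes had a larger fall.

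All 9 probesets of Hrc were lower in infarcted hearts, by 0.25 to 0.93, and 7 of them passed on their own after adjustment over all 241576 probesets, of which 4.3% were called lower. The groups did not overlap in those 7, against 3.09% of all probesets with infarcted arrays below sham arrays. The brightest probeset averaged 12.19 in infarcted and 12.60 in sham hearts (adjusted p = 0.0075). The largest change was that of the third dimmest probeset, at 8.58 in infarcted and 9.51 in sham hearts (adjusted p = 0.000667). The 2 dimmest probesets, at mean levels of 7.19 and 6.50, changed by -0.57 (adjusted p = 0.0568) and -0.25 (adjusted p = 0.343) and did not pass.

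Casq2 encodes calsequestrin 2, the main calcium buffer of the cardiac SR. Its gene value ranged from 11.68 to 12.14 with a median of 11.82 in infarcted hearts, and from 11.68 to 11.85 with a median of 11.78 in sham hearts. The groups overlapped, and infarcted replicate 2 was the highest array. The change was 0.07 (95% interval -0.09 to 0.24, adjusted p = 0.581). All 12 probesets had a positive change, between 0.01 and 0.18, and none passed in limma (1 had an unadjusted p under 0.05). The Hrc value minus the Casq2 value of the same array averaged -1.72 ± 0.22 in infarcted and -0.91 ± 0.24 in sham hearts (SD, n = 6 each), a difference of -0.81. The exact permutation test over all ways of choosing 6 of 12 arrays gave p = 0.00216 (two-sided, the smallest it can give), or 0.0108 after Benjamini-Hochberg adjustment over 5 such pairs.

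The bases before the start of these genes are shown because Hrc and Casq2, buffers of the same compartment, changed unequally. RefSeq windows were given for 7 of the 10 members (all but Atp2a2, Sln and Trdn). Each run below holds the 250 bases before the start, on the gene's strand, and capitals mark matches to the motifs searched. The E-box was searched as CANNTG. The motif of GATA factors was searched by those letters. The M-CAT motif of muscle genes was searched as CATTCC. The GC box was searched as GGGCGG. The TATA box was searched as TATAAA. The MEF2 and CArG boxes were searched by their usual consensus, and each motif on both strands.
Hrc (GRCm38.p6, chr7:45335019-45335268, plus strand): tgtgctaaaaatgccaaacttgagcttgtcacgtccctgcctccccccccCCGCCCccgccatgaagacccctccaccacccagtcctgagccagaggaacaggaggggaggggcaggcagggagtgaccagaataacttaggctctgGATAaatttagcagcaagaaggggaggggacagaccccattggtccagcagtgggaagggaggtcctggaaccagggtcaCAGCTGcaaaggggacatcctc
Casq2 (GRCm38.p6, chr3:102086165-102086414, plus strand): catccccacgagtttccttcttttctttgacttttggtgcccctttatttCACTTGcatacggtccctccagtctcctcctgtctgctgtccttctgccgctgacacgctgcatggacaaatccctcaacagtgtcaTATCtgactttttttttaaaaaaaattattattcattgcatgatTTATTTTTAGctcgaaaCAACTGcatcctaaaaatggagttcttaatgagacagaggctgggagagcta
The Hrc window held 1 E-box, 1 GATA and 1 GC box. The Casq2 window held 2 E-boxes, 1 GATA and 1 MEF2 box, the site bound by MEF2 factors of muscle. No marked matches overlapped. Of 32536 distinct RefSeq windows of that length, 66.2% held an E-box, 53.4% a GATA, 33.0% a GC box and 2.89% a MEF2 box. These matches describe the letters only.

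Triadin, the product of Trdn, links calsequestrin to the ryanodine receptor. Its gene value ranged from 8.85 to 9.27 with a median of 9.08 in infarcted hearts, and from 9.28 to 9.52 with a median of 9.37 in sham hearts. The groups did not overlap, but the highest infarcted and the lowest sham array nearly met. The change was -0.31 with a standard error of 0.09 (limma, adjusted p = 0.0185), a ratio of 0.806 (95% interval 0.71 to 0.915).

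Of 31 Trdn probesets 29 had a negative change, and 10 passed as lower and none as higher. Of all probesets 4.3% were called lower and 6.39% higher. The brightest, at 12.63 in infarcted and 12.82 in sham hearts, changed by -0.19 (adjusted p = 0.136). The dimmest, at 2.60 in infarcted and 2.24 in sham hearts, changed by 0.35 (adjusted p = 0.368) and was one of the 2 with a positive change. The median change was -0.23 over the 15 brighter probesets and -0.37 over the 16 dimmer ones. Because the gene value is the middle probeset, the call depended on which one that was. With all 31 probesets, the middle one was on 7 of 12 arrays a probeset that changed by -0.33. With the 4 dim probesets left out (mean under 5.58, the 30th percentile of all probesets), it was on 9 of 12 arrays one that changed by -0.18. The gene then changed by -0.20 and did not pass (adjusted p = 0.331). Each of the 10 probesets that passed on its own is among the 27 kept.

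The other genes of the release site showed small changes. Ryr2, the calcium release channel, had a gene value from 11.94 to 12.38 with a median of 12.18 in infarcted hearts, and from 12.20 to 12.49 with a median of 12.40 in sham hearts. The groups overlapped, with 5 of 6 infarcted arrays below the sham mean. The change was -0.20 (95% interval -0.37 to -0.02, adjusted p = 0.108). It passed with the mean over probesets (-0.23, adjusted p = 0.0171), with a trended robust prior (adjusted p = 0.044) and after the median of each array was subtracted (-0.24, adjusted p = 0.0457). All 105 probesets of Ryr2 had a negative change, between -0.63 and -0.05 with a median of -0.21. On their own 4 passed, where 4.3% of all probesets were called lower, and 52 had an unadjusted p under 0.05. The median change was -0.17 over the 52 brighter and -0.26 over the 53 dimmer probesets. Probesets of 1 gene share the same RNA, so this agreement in sign comes from 12 arrays and not from 105 independent measurements. The test of the Trdn value minus the Ryr2 value did not pass, with -3.11 ± 0.23 in infarcted and -2.99 ± 0.17 in sham hearts (SD, n = 6 each, exact permutation p = 0.329).

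Jph2 encodes junctophilin 2, which holds the SR close to the cell membrane. Gene values ran from 9.10 to 9.78 with a median of 9.64 in infarcted hearts, and from 9.29 to 9.92 with a median of 9.69 in sham hearts. The groups overlapped over most of their range, and the change was -0.11 (95% interval -0.39 to 0.17, adjusted p = 0.62). All 7 probesets had a negative change, from -0.39 to -0.10, and 1 passed, at 9.84 in infarcted and 10.22 in sham hearts (adjusted p = 0.0174). On 10 of 12 arrays the middle probeset was the one with the smallest change (-0.10). With the mean over probesets as the gene value, the change was -0.25 and passed (adjusted p = 0.0336).

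Fkbp1b encodes calstabin 2 (FKBP12.6), a small protein that binds the ryanodine receptor. Its values ran from 4.92 to 5.79 with a median of 5.34 in infarcted hearts, and from 4.57 to 5.28 with a median of 4.81 in sham hearts. The groups overlapped, and the change was 0.45 with a standard error of 0.15 (limma, adjusted p = 0.0468). The 5 probesets disagreed. The 2 brightest, at mean levels of 7.36 and 6.77, changed by -0.10 (adjusted p = 0.803) and -0.15 (adjusted p = 0.457). The other 3 lay between 4.76 and 4.88, under the 30th percentile of all probesets. Of these, 2 passed as higher, with changes of 0.96 (adjusted p = 0.0284) and 0.76 (adjusted p = 0.0158), and the third changed by 0.28 (adjusted p = 0.224). On all 12 arrays the middle probeset was one of the 3 dim ones. Without them the gene changed by -0.13 (adjusted p = 0.503), the opposite sign. The diffSplice F test of unequal change gave an adjusted p of 0.00275 with all 5 probesets (8.22% of all genes were called) and of 1 without the dim ones, and on simulated data it called more unchanged genes than its nominal rate. The call also ended in 9 of the 12 fits that left out 1 array (changes from 0.35 to 0.53, adjusted p from 0.0203 to 0.0991): it held only without sham replicate 2, sham replicate 3 or infarcted replicate 4.

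**Figure D3:**
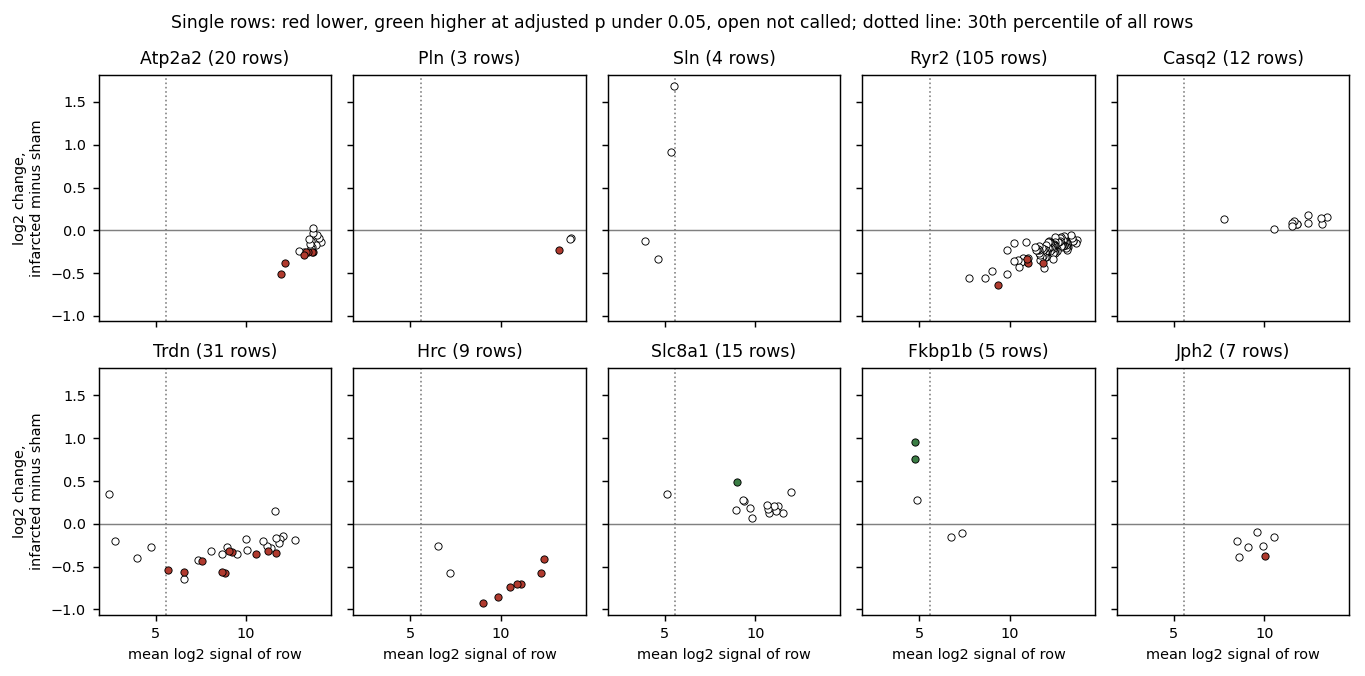
Change of each probeset (vertical axis, log2, infarcted minus sham) against its mean log2 signal over 12 arrays (horizontal axis), 1 panel for each member. Red points passed as lower and green points as higher at an adjusted p under 0.05; the dotted line marks 5.58, the 30th percentile of all probesets, and the green points of Fkbp1b lie left of it.

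With the median over probesets, neither the calcium pump nor its inhibitor phospholamban passed at the gene level. Atp2a2, which encodes SERCA2, had a gene value from 13.43 to 13.57 with a median of 13.47 in infarcted hearts, and from 13.58 to 13.71 with a median of 13.64 in sham hearts. All infarcted arrays lay below all sham arrays, with hardly a gap. The change was -0.16 (95% interval -0.28 to -0.03), and it did not pass (adjusted p = 0.0704). It passed with the mean over probesets (-0.20, adjusted p = 0.00438), with a trended robust prior (adjusted p = 0.00348), with dim genes left out (adjusted p = 0.0405) and after the median of each array was subtracted (-0.20, adjusted p = 0.0212). Among its 20 probesets 19 had a negative change and 7 passed as lower, against 4.3% of all probesets. The brightest, at 14.05 in infarcted and 14.19 in sham hearts, changed by -0.14 (adjusted p = 0.224). The 2 dimmest changed most, by -0.38 (11.96 in infarcted and 12.35 in sham hearts, adjusted p = 0.0165) and by -0.51 (11.66 in infarcted and 12.16 in sham hearts, adjusted p = 0.00929).

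Of 9 members that could be tested, only Atp2a2 was called for unequal change of its probesets (limma diffSplice F test, adjusted p = 4.83e-08). Of all genes tested 9.3% were called. Fkbp1b or Pln was also called under other settings, and not being called does not show equal change. The 10 brighter Atp2a2 probesets had a median change of -0.13 and the 10 dimmer ones -0.25. Ryr2, which was not called, had -0.17 over its brighter and -0.26 over its dimmer probesets. Near the top of the scale small changes were the rule for all genes. Probesets with a mean between 13 and 15 had a median absolute change of 0.0653 and 8.31% were called, against 0.149 and 23.7% for those between 11 and 13. The part of signal compression in the Atp2a2 pattern was not tested.

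Pln encodes phospholamban, which holds SERCA2 back until it is phosphorylated. Its gene value ranged from 13.70 to 13.84 with a median of 13.81 in infarcted hearts, and from 13.84 to 13.97 with a median of 13.89 in sham hearts. The groups did not overlap, but they met within rounding. The change was -0.09 (95% interval -0.22 to 0.03, adjusted p = 0.28). With the mean over probesets it was -0.14 and passed (adjusted p = 0.0246). All 3 probesets were lower, and 1 passed, the dimmest, at 13.11 in infarcted and 13.35 in sham hearts (adjusted p = 0.038). The Pln value minus the Atp2a2 value averaged 0.32 ± 0.05 in infarcted and 0.26 ± 0.09 in sham hearts (SD, n = 6 each), a difference of 0.06 that did not pass (exact permutation p = 0.208, adjusted 0.329).

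Sln encodes sarcolipin, a peptide that inhibits the pump and that in the mouse heart is made mainly in the atria. Its gene value ranged from 4.21 to 6.57 with a median of 4.89 in infarcted hearts, and from 4.16 to 5.02 with a median of 4.83 in sham hearts. The groups overlapped and the change of 0.41 did not pass (95% interval -0.36 to 1.18, adjusted p = 0.473). All 4 Sln probesets had means under 5.58. The 2 brightest were high on 3 infarcted arrays. The brightest read 9.01, 7.46 and 6.30 on infarcted replicates 4, 5 and 6, between 4.86 and 5.36 on the other 3 infarcted arrays, and between 3.59 and 5.54 on sham arrays. The next read 8.55, 7.04 and 6.49 on the same 3 arrays, between 4.17 and 4.27 on the other infarcted arrays, and between 4.33 and 5.36 on sham arrays. The other 2 probesets stayed between 3.66 and 4.64 on infarcted and between 3.81 and 5.24 on sham arrays. As 2 of 4 probesets did not rise above their sham range on those 3 arrays, the gene value understates the differences between arrays. None of the 4 passed on its own in limma, and 1 had an unadjusted p under 0.05, the brightest (1.69, adjusted p = 0.137).

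Of 6 atrial markers 3 (Myl7, Myl4 and Mybphl) were high on the same arrays, while Nppa was about level with the other infarcted arrays there and Sbk2 and Bmp10 were not above them. Myl7, the atrial regulatory myosin light chain, read 9.32, 7.53 and 7.06 on infarcted replicates 4, 5 and 6, between 5.07 and 5.57 on the other infarcted arrays, and between 5.35 and 7.24 on sham arrays. Myl4, the atrial essential light chain, read 11.30, 9.90 and 9.45 on those replicates, between 7.83 and 8.27 on the other infarcted arrays, and between 7.69 and 8.95 on sham arrays. Mybphl read 7.72, 6.57 and 6.47 on the 3 infarcted arrays, against at most 5.35 on the other infarcted and 5.71 on sham arrays. Sham replicate 4 had the highest Myl7 (7.24), Myl4 (8.95), Mybphl (5.71) and Sln gene value (5.02) of its group, and sham replicate 1 was second in all 4 (8.62 for Myl4, 5.63 for Mybphl and 4.94 for Sln).

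Over the 6 atrial markers the mean level ranged from 6.98 to 8.64 on infarcted and from 6.73 to 7.32 on sham arrays. The natriuretic peptide gene Nppa, which ventricles also make under stress, rose by 2.04 and read 13.46, 13.50 and 13.55 on infarcted replicates 4, 5 and 6, against 13.37 to 13.54 on the other infarcted arrays. Sbk2, a kinase gene, fell by 0.83 and read 6.50, 6.15 and 6.32 on those replicates, against 6.46 to 6.52 on the other infarcted arrays. Bmp10 stayed near background on every array, between 3.27 and 3.84 in infarcted and between 3.35 and 3.77 in sham hearts. Without infarcted replicates 4 and 5 the change of Sln was -0.14 (adjusted p = 0.768), and without replicates 4, 5 and 6 it was -0.41 (adjusted p = 0.196). The Sln value minus the Atp2a2 value of the same array differed by 0.57 between groups (exact permutation p = 0.201), and the Sln value minus the Pln value by 0.51 (exact permutation p = 0.277), both with an adjusted p of 0.329. The part of atrial tissue in the Sln signal was not tested. Among 13195 genes at or above the 30th percentile, the 3 whose deviations from the group means were most like those of Sln over the 12 arrays were Mybphl (Pearson r = 0.94), Myl4 (0.94) and Myl7 (0.90), followed by the lipase gene Pnpla2 (0.87) and the glutathione transferase gene Mgst1 (0.84). These values describe the arrays and share their high infarcted replicates.

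**Figure D4:**
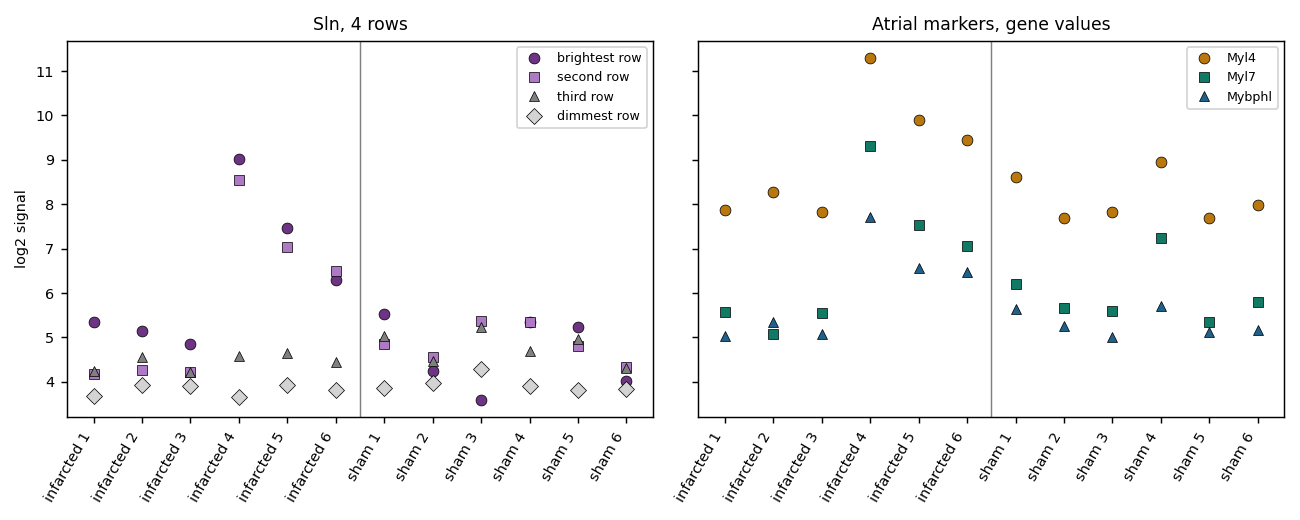
Log2 signal of the 4 Sln probesets (left) and gene values of the atrial markers Myl4, Myl7 and Mybphl (right) on the 6 infarcted and 6 sham arrays. The brightest Sln probeset reaches 9.01 on infarcted replicate 4, where Myl4 (11.30), Myl7 (9.32) and Mybphl (7.72) are also highest.

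Slc8a1 encodes the sodium-calcium exchanger NCX1 of the cell membrane. The gene value ranged from 10.43 to 10.95 with a median of 10.76 in infarcted hearts, and from 10.37 to 10.62 with a median of 10.45 in sham hearts. Infarcted replicates 1, 2, 3 and 4 lay above every sham array, and the other 2 lay within the sham range. The change was 0.23 (95% interval 0.03 to 0.43) and did not pass (adjusted p = 0.101). All 15 probesets had a positive change, between 0.07 and 0.48. The brightest, at 12.16 in infarcted and 11.78 in sham hearts, changed by 0.38 (adjusted p = 0.08). The 1 that passed stood at 9.22 in infarcted and 8.73 in sham hearts (adjusted p = 0.00271), with no overlap between groups, as in 4.56% of all probesets with infarcted arrays above sham arrays. Without infarcted replicate 5 the gene passed (0.29, adjusted p = 0.0436).

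Over all 211 probesets of the members, 30 were called lower and 3 higher, against 4.3% and 6.39% of all probesets. These shares are not matched for brightness, as 199 of the 211 lay at or above the 30th percentile. Among all probesets, 2.95% with means under 5.5 were called either way, 9.24% between 5.5 and 8, and 18.1% between 8 and 11. The share was 23.7% between 11 and 13 and 8.31% between 13 and 15. Whether the members differ from probesets of like brightness was not tested. Within a gene the probesets share their RNA, and Ryr2 alone accounts for 105 of the 211. The arrays on which Hrc was relatively high or low within its group had like counterparts in other genes. The 5 genes most like Hrc over the 12 arrays after removal of the group means were Anapc16 (Pearson r = 0.93), Corin (0.93), Ppip5k2 (0.92), Anks1 (0.92) and Zfp612 (0.92). All 5 were also called lower in infarcted hearts, with changes between -0.82 and -0.26, where 10.2% of all genes were called lower. They are the highest of 13194 genes compared, and how high such values run by chance was not tested. Corin, which changed by -0.44, encodes the heart protease that processes natriuretic peptides.

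Among close relatives of the members, of 11 paralogues 1 fell and none rose in limma (5 had an unadjusted p under 0.05), with a median change of 0.07. Jph1, the junctophilin of skeletal muscle that the heart also makes, averaged 8.23 in infarcted and 8.82 in sham hearts, a fall of 0.59 (adjusted p = 0.00112). Fkbp1a, the close relative of Fkbp1b, changed by 0.13 (9.26 in infarcted and 9.14 in sham hearts, adjusted p = 0.553). Atp2a1 and Casq1, the pump and buffer genes of fast skeletal muscle, and Ryr1, its channel gene, changed by 0.27, 0.27 and 0.10 and did not pass (adjusted p = 0.666, 0.117 and 0.672). The other paralogues, Atp2a3, Ryr3, Jph3, Jph4, Slc8a2 and Slc8a3, averaged between 4.87 and 7.31 in infarcted hearts and between 5.01 and 7.31 in sham hearts, and none of these 6 passed.

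Partners of the SR and of cell calcium moved in both directions. Of 22 measured genes 2 rose and 3 fell, with a median change of 0.01. Sri encodes sorcin, a calcium-binding regulator of the release channel, and rose by 0.42 (10.80 in infarcted and 10.38 in sham hearts, adjusted p = 0.000647). Atp2b4, a calcium pump of the cell membrane, rose by 0.32 (8.18 in infarcted and 7.86 in sham hearts, adjusted p = 0.0118). Both genes of the trimeric potassium channels of the SR, which carry counter-current during calcium release, fell: Tmem38a by 0.29 (11.59 in infarcted and 11.88 in sham hearts, adjusted p = 0.0104) and Tmem38b by 0.34 (7.95 in infarcted and 8.29 in sham hearts, adjusted p = 0.0154). Cav3, the caveolin of muscle, fell by 0.21 (7.46 in infarcted and 7.68 in sham hearts, adjusted p = 0.0322).

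Of 23 measured genes that regulate the cycle 5 fell and 2 rose, with a median change of -0.11. Ppp1r3a, a targeting subunit of protein phosphatase 1 in striated muscle, fell by 0.67 (10.13 in infarcted and 10.80 in sham hearts, adjusted p = 0.00135). Camk2b, a subunit of calcium/calmodulin-dependent kinase II, fell by 0.52 (7.61 in infarcted and 8.12 in sham hearts, adjusted p = 0.000828), while Camk2d, the main cardiac subunit, changed by -0.11 (adjusted p = 0.388). Akap7, which anchors protein kinase A near phospholamban, fell by 0.37 (8.67 in infarcted and 9.04 in sham hearts, adjusted p = 0.00194). Prkar1a, a regulatory subunit of protein kinase A, rose by 0.42 (11.34 in infarcted and 10.92 in sham hearts, adjusted p = 0.00129), and Calm2, a calmodulin gene, rose by 0.29 (9.51 in infarcted and 9.22 in sham hearts, adjusted p = 0.0222). In the 3 lists together 13 of 56 genes were called, a share close to the 20.3% of all genes.

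**Figure D5:**
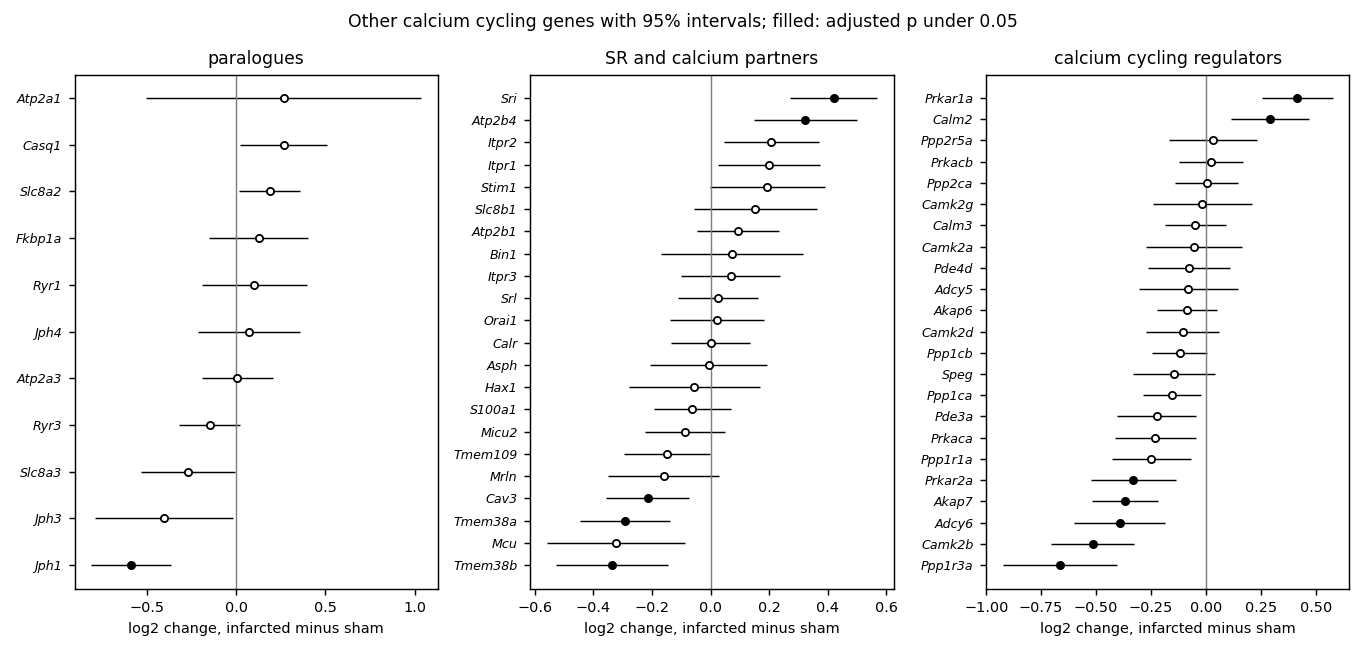
Change in log2 signal, infarcted minus sham, with 95% intervals, for 11 paralogues, 22 partners and 23 regulators of calcium cycling. Filled points passed at an adjusted p under 0.05, for example Jph1 (-0.59), Sri (0.42) and Ppp1r3a (-0.67).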

How the data were processed

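The data were 12 one-colour arrays. The authors deposited log2 values per probeset, made with Affymetrix Power Tools per the submitters' processing notes. For the summary method, the normalization and the genome build, the sources used here give nothing. Base 2 was read from the range (1.52 to 14.37), and every fold change rests on that reading. Precision is limited by 6 arrays per group.

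Probesets with 1 symbol in the platform annotation (212097 of 241576) were used, older symbols were updated through RefSeq synonyms, and the gene value was the median over probesets. Groups were compared gene by gene and probeset by probeset in R 4.3.3 with limma 3.58.1, two-sided, and p-values were adjusted by Benjamini-Hochberg over every feature, at a threshold of 0.05. Every adjusted p in the text is from these fits unless a permutation test, diffSplice or an alternative setting is named. Unequal probesets were tested with diffSplice, leaving out those under the 30th percentile (5.58). On simulated data diffSplice called more unchanged genes than its nominal rate, so only its smallest p-values carry weight. Figures were drawn with matplotlib 3.10.9.

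The members and lists were chosen with earlier results of these data known. All members were named whatever their result. From each related list up to 4 called genes with the smallest p and up to 2 in the other direction were named, and the remaining paralogues by level. Camk2d was added after its values were seen. Listed genes without a measured value were not analysed here. Alternatives covered the summary over probesets, filters, scaling, weights, a replicate block and left-out arrays. Replicate numbers did not pair the groups: same-numbered arrays correlated between -0.05 and 0.10 in their deviations from group means.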

Additional observations from a re-analysis of the deposited data

Results flagged for a closer look

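In 3 of 48 groups of 6 values examined, 1 array stood apart from the other 5 by the gap between it and its nearest neighbour, as a share of the group's whole range. Chance alone flags about 1 in 20 groups. All 3 concern infarcted replicate 5. For Pln it was the lowest infarcted array, at 13.70, with the other 5 between 13.80 and 13.84, and the gap was 0.733 of the range. In the mean of the skeletal muscle markers it was the highest, at 6.22, with the other infarcted arrays between 5.22 and 5.40 and sham arrays between 5.15 and 5.63, and the gap was 0.82 of the range. In the mean of the adipocyte markers it was the highest, at 7.40, with the other infarcted arrays between 5.03 and 5.80 and sham arrays between 5.24 and 5.43, and the gap was 0.675 of the range. The part of these other tissues in the member values was not tested. Without infarcted replicate 5 the change of Pln was -0.075 (limma, adjusted p = 0.438), and without infarcted replicates 4 and 5 it was -0.08 (adjusted p = 0.479).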

How the results depend on the processing

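Hrc passed under every alternative run, with changes from -0.81 to -0.64. With the mean over probesets 7 members and 5674 of 20352 genes passed, the members Atp2a2 (-0.20), Pln (-0.14), Ryr2 (-0.23) and Jph2 (-0.25) being added. With dim probesets left out only Hrc passed (1 of 9 members, against 4405 of 17268 genes), Trdn changed by -0.20 and Fkbp1b by -0.13. With a trended robust prior 5 members and 4417 of 20352 genes passed, the members Atp2a2 (-0.16) and Ryr2 (-0.20) being added. Atp2a2 also passed with dim genes left out (-0.16) and with arrays centred on their medians (-0.20), where Ryr2 passed (-0.24) and Fkbp1b did not (0.40). Fkbp1b did not pass with quantile normalization (0.41), array weights (0.44) or infarcted arrays 4 and 5 left out (0.43). Slc8a1 passed with arrays centred on cardiomyocyte markers (0.28). Over all genes 2050 were higher and 2074 lower, with medians centred 1748 and 2956, and with cardiomyocyte markers centred 2446 and 1473. Without infarcted arrays 4 and 5, Sln (-0.14) and Sln minus Pln (-0.055) changed sign. Leaving out infarcted arrays 4, 5 and 6 was chosen after seeing the data. It gave 2160 called genes, against 4124, and Sln (-0.41), Sln minus Atp2a2 (-0.23), Sln minus Pln (-0.32) and Jph2 (0.037) changed sign. Trdn (-0.29) and Fkbp1b (0.41) then did not pass, and Slc8a1 (0.38) did. Hrc minus Casq2 (-0.85) did not pass there (exact permutation, adjusted p = 0.0595). The smallest p-value of 84 splits is 0.0119, which is 0.0595 after adjustment over 5 pairs unless other pairs are also small. The other pairs had an adjusted p of 0.298. Causes not shown by an alternative's own construction were not tested. Unequal probesets were called in 2 members with all probesets kept (Atp2a2 and Fkbp1b), against 1. With mean-variance weights (added after seeing the data) they were also called in 2 (Atp2a2 and Pln). Leaving out single arrays gave 19 to 34 called member probesets, Fkbp1b changes from 0.35 to 0.53 and Slc8a1 changes from 0.18 to 0.29. The lowest counts were 19 without infarcted replicate 3 or 5 and 20 without infarcted replicate 6, against 33. With the replicate number as a block 3 members and 3802 genes were called, the same number of members as without it. Of 12 arrays 4 correlated best with their own number. Dim signal limits Sln and Fkbp1b. For Trdn 4 of 31 probesets were dim, and the gene-level call was lost without them. Its 10 called probesets were all among the 27 that were not dim.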
